A study of Mus musculus with 4 samples.

Results

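The horizontal cell genes are 6 of the 48897 genes in the deposited table, chosen by name as the transcription factors Lhx1, Onecut1, Onecut2, Prox1 and Ptf1a and the calcium-binding protein gene Calb1. All 6 were found, and 5 of them passed the filter on low counts and were tested. The measurements came from 4 RNA-Seq libraries of retinas of C57BL/6 mice (C57BL/6J in the methods of the study), labelled as wild type, taken on postnatal day 9. On postnatal day 3, 0.6 nmol of an antagomir against miR-124-3p in 1 μl saline was injected into the vitreous of the left eyes (anti-miR-124 group, 2 libraries), and a scrambled sequence of equal amount into that of the right eyes (NC group, 2 libraries). An antagomir is a modified antisense oligonucleotide that blocks a mature microRNA, and miR-124-3p is abundant in neurons. All libraries therefore came from injected eyes, and the eye side cannot be told apart from the treatment. Retinas of more than 1 litter were mixed in each group, and the labels do not say that the libraries came from separate animals, so p-values measure only the spread between libraries, which may be technical. Each group was a mixture of several retinas, and how these were divided between its libraries was not given in the sources used here. Libraries of the anti-miR-124 and NC groups are called antagomir and control libraries, respectively. Each left-eye library shares a number in the table with a right-eye library, and these couples are named pairs A and B. By the methods of the study, mice received the antagomir in the left eye and the control in the right. The libraries of a pair may thus come from both eyes of the same mice, but the labels do not say so. The main test did not use the pairs, and a fit that did is given at the end.

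Horizontal cells are inhibitory interneurons of the outer retina that contact the terminals of rods and cones and feed back on them. They are born before birth from progenitors in which Foxn4 acts upstream of Ptf1a, a basic helix-loop-helix factor that directs cells to the horizontal and amacrine fates. Onecut1 and Onecut2 encode cut-homeodomain factors needed for horizontal cell genesis and maintenance, Prox1 encodes a homeodomain factor that promotes the horizontal fate, and Lhx1 encodes a LIM-homeodomain factor that sets the layer in which the cells settle. Calb1 encodes calbindin, a cytosolic calcium buffer and the usual immunostaining marker of mouse horizontal cells. Most of these genes are not private to the cell type, since Onecut factors are also made in retinal ganglion cells, Prox1 in AII amacrine and bipolar cells and in the lens, and calbindin in amacrine and ganglion cells.

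The promoter windows of 3 members are shown. Of the tested members, Lhx1 had the highest fold change and Prox1 the one nearest to 0, and Onecut1 stands here for the Onecut genes, as the window of Onecut2 was not used here. Each window holds 250 bases before and 50 bases after the transcription start (RefSeq, GRCm38.p6), 5′ to 3′ on the strand of the gene, with matches to CCAAT and TGACG on either strand in capitals. They lie at chr11:84525485-84525784 on the minus strand (Lhx1), chr9:74861671-74861970 on the plus strand (Onecut1) and chr1:190170778-190171077 on the minus strand (Prox1, the upstream window of 2).
Lhx1: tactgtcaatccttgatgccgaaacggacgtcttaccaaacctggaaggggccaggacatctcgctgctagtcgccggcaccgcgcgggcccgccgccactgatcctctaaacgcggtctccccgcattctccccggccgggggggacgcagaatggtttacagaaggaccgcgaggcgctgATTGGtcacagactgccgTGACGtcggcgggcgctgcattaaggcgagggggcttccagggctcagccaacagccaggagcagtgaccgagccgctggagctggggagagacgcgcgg
Onecut1: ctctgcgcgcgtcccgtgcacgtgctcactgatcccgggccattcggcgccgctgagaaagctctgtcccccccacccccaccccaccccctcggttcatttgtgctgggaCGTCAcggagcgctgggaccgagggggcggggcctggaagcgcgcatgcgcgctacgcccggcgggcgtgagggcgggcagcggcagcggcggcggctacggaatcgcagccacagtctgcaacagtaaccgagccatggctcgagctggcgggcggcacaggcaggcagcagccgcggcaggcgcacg
Prox1: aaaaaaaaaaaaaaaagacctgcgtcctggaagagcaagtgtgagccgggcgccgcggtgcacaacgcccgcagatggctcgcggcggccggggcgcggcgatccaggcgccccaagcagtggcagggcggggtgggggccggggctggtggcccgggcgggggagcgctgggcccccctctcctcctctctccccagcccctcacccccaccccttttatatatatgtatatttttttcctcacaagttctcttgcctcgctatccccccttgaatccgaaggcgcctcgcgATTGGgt

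A CCAAT match was found in the windows of Lhx1, Prox1 and Ptf1a, and in 37.4% of 32851 promoter windows of the same length. TGACG, the first bases of a cyclic AMP response element, was found in those of Lhx1 and Onecut1 and in 20.8% of all windows. TATAAA was found in the Prox1 window and in 13.6% of all windows, and GGGCGG in the windows of Onecut1 and Prox1 and in 35.7%. TAATTA, the core bound by many homeodomains, and ATCAAT were in neither these 3 windows nor that of Ptf1a, and in 5.29% and 7.54% of all windows. The windows were rich in G and C, with 65.7% in Lhx1, 73.0% in Onecut1, 64.3% in Prox1 and 67.3% in Ptf1a, against a median of 52.7% over all windows. Both strands were searched, and the CCAAT and TGACG matches did not overlap.

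The libraries held between 16317239 and 18726963 counts on genes, and the rod markers that define the retina summed to between 8782.5 and 9460.8 CPM in each. CPM values (counts scaled to a common library size) were computed with TMM normalization, which assumes that most genes have equal levels, and TPM values (counts per length as a share of the library) from the gene lengths of the table. Markers of lens fibres took 6.68% of the TPM sum in the control library of pair A and at most 0.0238% in each other library, and the median log2 ratio of pair A over all tested genes was 0.10 in TPM and -0.01 in CPM. CPM was therefore used for differences and TPM for levels. Microglia markers summed to 208.7 CPM in the antagomir library of pair B and to between 89.2 and 114.8 CPM in the others.

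Per length, Prox1 was by far the most abundant member, with 171.6 ± 21.4 TPM (SD, n = 2) in the NC group, and it lay above 94.4% of the tested genes by its mean over all libraries. Calb1 followed with 27.9 ± 1.3 TPM (SD, n = 2), Lhx1 with 12.9 ± 2.9, Onecut1 with 11.9 ± 1.8 and Onecut2 with 9.99 ± 0.92. In the NC group, the values of Lhx1 (10.9 and 15.0 TPM) and Onecut1 (10.6 and 13.1 TPM) overlapped, while both values of Onecut2 (9.34 and 10.6 TPM) lay just below those of Onecut1. In the anti-miR-124 group the order was the same and the values of Lhx1 and Onecut1 did not overlap, with 18.2 ± 2.5 TPM for Lhx1, 14.1 ± 0.8 for Onecut1 and 12.2 ± 0.4 for Onecut2 (SD, n = 2). Ptf1a was at the bottom with 0.49 ± 0.17 TPM (SD, n = 2) in the NC group. The order rests on the lengths in the table, which for Onecut1 is 1824 bases, while the longest GENCODE transcript of this gene has 3957 exonic bases. For Calb1 these lengths were 2867 and 4222 bases.

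No member passed the test. With edgeR's quasi-likelihood test and Benjamini-Hochberg adjustment over 17766 genes, 0 of the 5 tested members had an adjusted p under 0.05, as did 0.0% of all tested genes. Over all genes, 694 had an unadjusted p under 0.05, and DESeq2's Wald test gave 33 genes with an adjusted p under 0.05, no member among them. At an unadjusted p under 0.05, Lhx1 and Onecut2 were higher after the antagomir, 2 of 5 members against 2.23% of all tested genes, and no member was lower, against 1.68%. DESeq2 gave 0 members at an unadjusted p under 0.05. In CPM, both antagomir libraries lay above both control libraries for Lhx1, Onecut1 and Onecut2, 3 of 5 members against 16.5% of all tested genes. In TPM this held for Calb1 as well, 4 of 5 members against 20.8%. The ratio was positive in both pairs for these 4 genes in CPM, against 22.7% of all tested genes, and in TPM, against 32.3%. No tested member had a negative ratio in both pairs, against 24.0% in CPM. The median log2 fold change was 0.20 over the 5 tested members and 0.0007 over all tested genes. The members were chosen with results of these data known, so these shares describe them and are not a test. In whole retina, more cells of a type and more RNA per cell cannot be told apart.

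**Figure D1:**
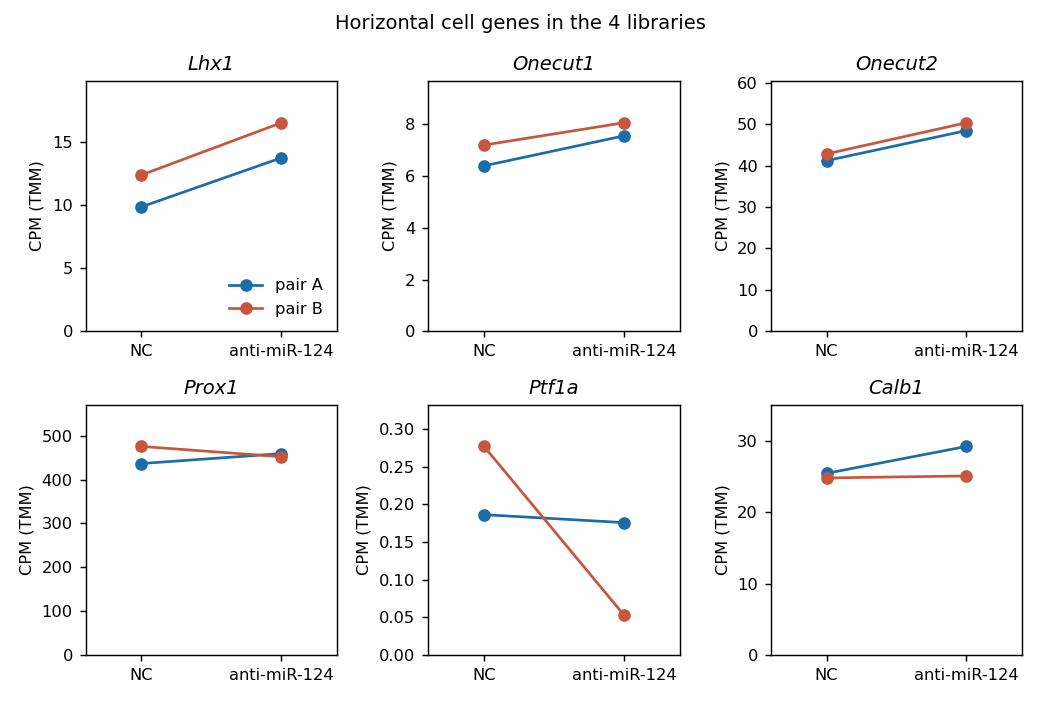
TMM-normalized CPM (y axis from 0, own scale for each gene) of the 6 horizontal cell genes in the control and antagomir libraries, with a point for each library and a line joining those of a pair. Lhx1, Onecut1 and Onecut2 were higher in both antagomir libraries, the Prox1 lines cross, and Ptf1a rests on 1 to 5 counts per library.

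Lhx1 (chromosome 11, 84519379 to 84525534, minus strand, GRCm38) had 159 counts (control) and 235 counts (antagomir) in pair A, and 224 and 312 counts in pair B. Normalized, this was 9.87 and 12.4 CPM in the NC group, against 13.8 and 16.6 CPM after the antagomir. The groups did not overlap, but the gap between them was smaller than the distance between the control libraries. It had a fold change of 0.44 on the log2 scale (standard error, SE, 0.17), a 1.36-fold higher level, with an unadjusted p of 0.036 and an adjusted p of 0.989 (edgeR). The log2 CPM ratio was 0.48 in pair A (95% counting interval 0.18 to 0.78) and 0.42 in pair B (0.16 to 0.67). Both intervals lie above 0, but they cover counting error only, and the control libraries differed from each other by 0.33 on the same scale. Without the control library of pair A, the log2 fold change of Lhx1 was 0.29 (SE 0.20, unadjusted p = 0.181, edgeR) and no member had an unadjusted p under 0.05.

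The start of Lhx1 lies 126 bases from that of Lhx1os, a long non-coding RNA gene read in the opposite direction. In the window printed above, Lhx1 starts at base 251 and Lhx1os at base 125, counted from the 5′ end. The CCAAT match, read on the opposite strand, begins at base 183 and the TGACG match at base 201, so that both lie between the starts. Lhx1os was found by its position, within 2000 bases of a member, and is described because its values resembled those of Lhx1. It had 41 and 45 counts in the control libraries and 62 and 63 in the antagomir libraries of pairs A and B, which is 2.55 and 2.49 CPM against 3.63 and 3.34 CPM. These groups did not overlap either. Its log2 fold change was 0.47 (SE 0.25, unadjusted p = 0.111, adjusted p = 0.989, edgeR). Relative to 1000 counts of Lhx1 there were 258 and 264 counts of Lhx1os in pair A and 201 and 202 in pair B. These ratios were closer between the groups of a pair than between the pairs. With 41 to 63 counts of Lhx1os per library, the difference between the pairs may be counting error and was not tested. The spans of the 2 genes in the table do not overlap.

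Onecut2 (chromosome 18, 64340364 to 64398488, plus strand) had the most even values of the members that were higher. Its counts were 664 and 774 in the control libraries and 828 and 950 in the antagomir libraries of pairs A and B. In CPM, the control libraries were at 41.2 and 42.9 and the antagomir libraries at 48.5 and 50.4. The gap between the groups was larger than the distance between the libraries within either group. The log2 fold change was 0.23 (SE 0.08), a 1.18-fold higher level (unadjusted p = 0.0196, adjusted p = 0.989, edgeR). The log2 CPM ratios of the pairs were 0.23 and 0.23, with counting intervals of 0.09 to 0.38 in pair A and 0.10 to 0.37 in pair B. By p-value Onecut2 ranked 217th and Lhx1 452nd of the 17766 tested genes. Of the exonic bases of its longest transcript, 88.4% are 3′ UTR. This share is 78.2% in Calb1, 65.5% in Prox1, 55.2% in Onecut1, 32.9% in Lhx1 and 22.2% in Ptf1a. A link between this share and the fold changes was not tested.

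Onecut1 (chromosome 9, 74861921 to 74889648, plus strand) had the direction of Onecut2 but was measured with fewer counts. It had 103 and 130 counts in the control libraries and 129 and 152 in the antagomir libraries, or 6.40 and 7.20 CPM against 7.56 and 8.06 CPM. The groups did not overlap, and the gap between them was smaller than the distance within either group. edgeR gave a log2 fold change of 0.20 (SE 0.18, unadjusted p = 0.307, adjusted p = 0.989). Both counting intervals of the pairs included 0, with -0.14 to 0.63 in pair A and -0.18 to 0.51 in pair B, so a difference of this size was not detectable at this depth. Without the control library of pair A its log2 fold change was 0.12. In each library, 1000 counts of Onecut2 came with 155.1 and 155.8 counts of Onecut1 in pair A and with 168.0 and 160.0 in pair B (NC and anti-miR-124), and the groups overlapped in this ratio. The span of Gm38678, a low-count long non-coding RNA gene on the same strand (7 to 17 counts per library), overlaps that of Onecut1. Whether their exons share a stretch was not examined, and reads of any such stretch could not be told apart.

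Onecut3, the third gene of the family, had 9.44 and 9.91 CPM in the control libraries and 9.67 and 9.71 CPM in the antagomir libraries. Its anti-miR-124 values lay between the NC values. Its log2 fold change was 0.001 (SE 0.15).

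**Figure D2:**
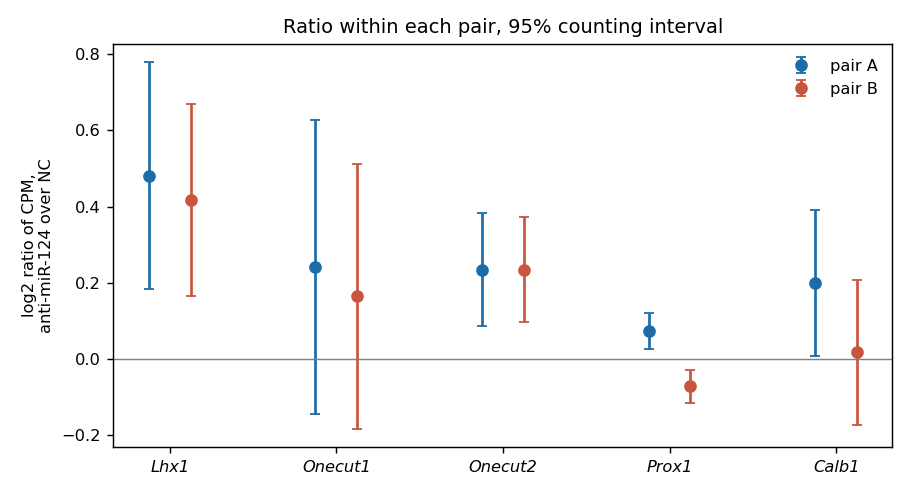
Log2 ratio of the CPM of the antagomir over the control library in pairs A and B for the 5 tested members, with 95% exact counting intervals as bars. The bars of Lhx1 and Onecut2 lie above 0 in both pairs, those of Onecut1 cross 0 in both pairs, and Prox1 had ratios of 0.07 and -0.07 on opposite sides of 0.

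Prox1 (chromosome 1, 190118035 to 190170680, minus strand) was measured with the most counts and did not separate the groups. It had 7032 and 8589 counts in the control libraries and 7842 and 8524 in the antagomir libraries of pairs A and B. The CPM values were 436.6 and 475.7 in the NC group and 459.3 and 452.2 after the antagomir, so that both antagomir libraries lay between the control libraries. Its log2 fold change was -0.001 (SE 0.07, adjusted p = 1.00, edgeR), and its sign depended on the scaling, with 0.0062 from total counts. The pairs differed in direction, with log2 CPM ratios of 0.07 in pair A (counting interval 0.03 to 0.12) and -0.07 in pair B (-0.12 to -0.03). The lowest Prox1 value was in the control library of pair A, which held the lens transcripts, although Prox1 is also a gene of lens fibres. The part of the lens transcripts in this value was not tested. LOC102632463, a long non-coding RNA gene on the opposite strand that overlaps the start of Prox1, had 74 to 127 counts per library, and reads of the 2 strands can be told apart only if the counting used strand, which is not stated in the sources used here.

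The other members were also set against Prox1 within each library, a ratio that needs no scaling between libraries. Prox1 was chosen for its nearly equal levels in these same data. The ratios therefore largely repeat the CPM differences given above and are no separate support for them. Lhx1 had 22.6 and 26.1 counts per 1000 Prox1 counts in the control libraries and 30.0 and 36.6 in the antagomir libraries of pairs A and B. For Onecut2 these ratios were 94.4 and 90.1 against 105.6 and 111.5. For Onecut1 they were 14.7 and 15.1 against 16.5 and 17.8. The groups did not overlap for these 3 genes, and the ratio was higher in the antagomir library of each pair. The share of all tested genes that do not overlap in their ratio to Prox1 was not computed, so this is a description only. Calb1 had 58.3 and 52.2 against 63.6 and 55.5 counts per 1000 Prox1 counts, and its groups overlapped. The ratio of Lhx1 to Calb1 differed more between the pairs than between the groups, with 387.8 and 470.9 counts per 1000 Calb1 counts in pair A and 500.0 and 659.6 in pair B.

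Calb1 (chromosome 4, 15881264 to 15906709, plus strand) had 410 and 448 counts in the control libraries and 499 and 473 in the antagomir libraries of pairs A and B. The CPM values were 25.5 and 24.8 in the NC group and 29.2 and 25.1 after the antagomir. The antagomir library of pair A stood above the other libraries, which lay close together. The log2 fold change was 0.11 (SE 0.10, adjusted p = 0.989, edgeR), and it was -0.003 without the antagomir library of pair A and 0.22 without that of pair B. The log2 CPM ratio was 0.20 in pair A (counting interval 0.01 to 0.39) and 0.02 in pair B (-0.17 to 0.21). Of the EF-hand relatives of calbindin, Calb2 (calretinin) and Scgn (secretagogin) had log2 fold changes of -0.03 (SE 0.19) and -0.01 (SE 0.20). The log2 CPM ratios of both were positive in pair A (0.30 and 0.39) and negative in pair B (-0.43 and -0.45).

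Ptf1a (chromosome 2, 19445663 to 19447501, plus strand), which is transcribed in newly born horizontal and amacrine cells, was near the floor of the measurement. Its counts were 3 and 5 in the control libraries and 3 and 1 in the antagomir libraries, and it did not pass the filter on low counts. Summed over the libraries of a group, there were 8 counts against 4, a log2 ratio of -1.07 with a counting interval of -3.25 to 0.83. No difference was detectable at this depth. Without the filter, edgeR gave a log2 fold change of -1.05 (SE 1.26, adjusted p = 0.955). Its antisense neighbour Ptf1aos had 1 count in all libraries together.

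The other genes known from horizontal cells were taken as a list of 9, all of which were tested. Not all of them had the direction of Lhx1 and the Onecut genes. In CPM, both antagomir libraries lay above both control libraries for 3 of the 9, against 16.5% of all tested genes. Both lay below for 1 of the 9, against 16.8%. None of the 9 had an unadjusted p under 0.05, 7 had a positive and 2 a negative log2 fold change, and the median was 0.08. This median was -0.05 without the antagomir library of pair A and 0.30 without that of pair B. In pair A 8 of the 9 were higher, and in pair B 3 of 9. Slc4a3, an anion exchanger gene, had 47.7 and 54.9 CPM in the control libraries and 63.6 and 57.2 CPM in the antagomir libraries, without overlap, and a log2 fold change of 0.24 (SE 0.10, unadjusted p = 0.0505, adjusted p = 0.989, edgeR). At the lower end were Sept4, a septin gene, with a log2 fold change of -0.07 (SE 0.07), and Megf11, which takes part in the mosaic spacing of horizontal cells, with -0.04 (SE 0.09). Gja10, the connexin gene of horizontal cell gap junctions, had 26 to 48 counts per library and a log2 fold change of 0.18 (SE 0.34), and its log2 CPM ratio was 0.71 in pair A but -0.26 in pair B. Slc32a1, the vesicular transporter of inhibitory transmitters, had 0.09 (SE 0.07).

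**Figure D3:**
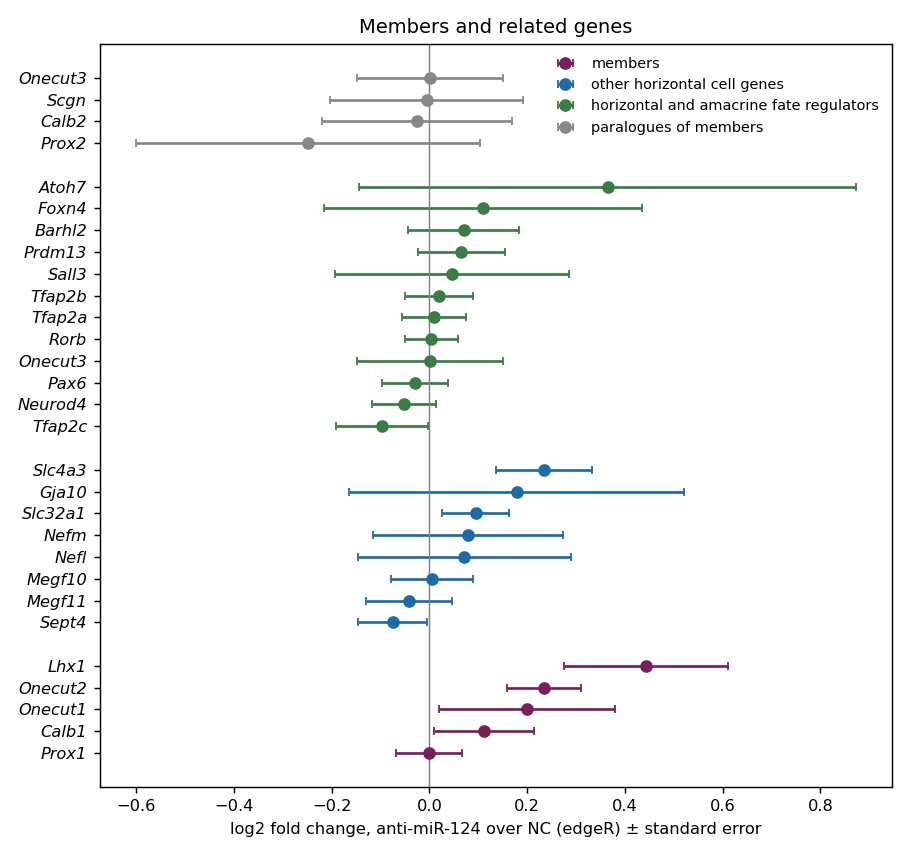
Log2 fold change (x axis) of the anti-miR-124 over the NC group from edgeR, with bars of 1 SE, for the 5 tested members and genes of 3 related lists. Lhx1 at 0.44 is the highest value drawn, but a gene of these lists was left out, so the rank of Lhx1 among all of them is not shown. The fate regulators lie close to 0 except Atoh7, which rests on 8 to 17 counts.

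The 12 regulators of the horizontal and amacrine fates had a median log2 fold change of 0.02, and none had an unadjusted p under 0.05. The highest were Atoh7, the ganglion cell determinant, at 0.36 (SE 0.51) and Foxn4 at 0.11 (SE 0.32), both from fewer than 40 counts per library. The lowest were Tfap2c at -0.10 (SE 0.09) and Neurod4 at -0.05 (SE 0.07). Tfap2a and Tfap2b, AP-2 factors of horizontal and amacrine cells, had 0.01 (SE 0.07) and 0.02 (SE 0.07), with more than 1000 counts in every library. Of the 5 paralogues of the members, 4 were tested, with log2 fold changes between -0.25 (Prox2, SE 0.35) and 0.001 (Onecut3). Lhx5, the closest relative of Lhx1, had 3 counts in all libraries together.

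Markers of the other inner retinal neurons differed between the pairs in direction. All 8 retinal ganglion cell markers were higher in the antagomir library of pair A (median log2 CPM ratio 0.43) and all 8 were lower in that of pair B (median -0.49). The summed level of these markers was 319.0 and 369.6 CPM in the control libraries and 429.4 and 273.7 CPM in the antagomir libraries. Among the amacrine cell markers 8 of 8 were higher in pair A and 2 of 8 in pair B, and among the bipolar cell markers 7 of 7 and 0 of 7. The neurofilament genes Nefl and Nefm, which horizontal cells share with ganglion cells, had log2 CPM ratios of 0.52 and 0.47 in pair A and of -0.45 and -0.37 in pair B. Lhx1, Onecut1 and Onecut2 were higher in both pairs, Prox1 followed the sign of the ganglion cell markers, and Calb1 had its higher ratio in pair A. The part of the ganglion and amacrine cell markers in the values of the members was not tested.

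Of the 7 cone markers, 6 were lower at an unadjusted p under 0.05, against 1.68% of all tested genes (edgeR). None passed the adjusted threshold. All 7 were lower in both pairs, against 24.0% of all tested genes, with a median log2 fold change of -0.62. This median was -0.29 if the antagomir library of pair B was left out and -1.04 if that of pair A was. Microglia markers had a median log2 CPM ratio of -0.03 in pair A and 1.27 in pair B. Any share of microglia in the Lhx1 values was not tested. Pigment epithelium markers summed to 91.8 CPM in the antagomir library of pair A and to between 48.9 and 67.8 CPM in the others. Astrocyte markers had a median log2 CPM ratio of 0.07 in pair A but 0.61 in pair B, and rod markers of 0.04 and 0.06. Progenitor and cycling markers had a median log2 fold change of -0.01 and endothelial markers of -0.06. No marker of these lists was at 0 in all libraries.

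**Figure D4:**
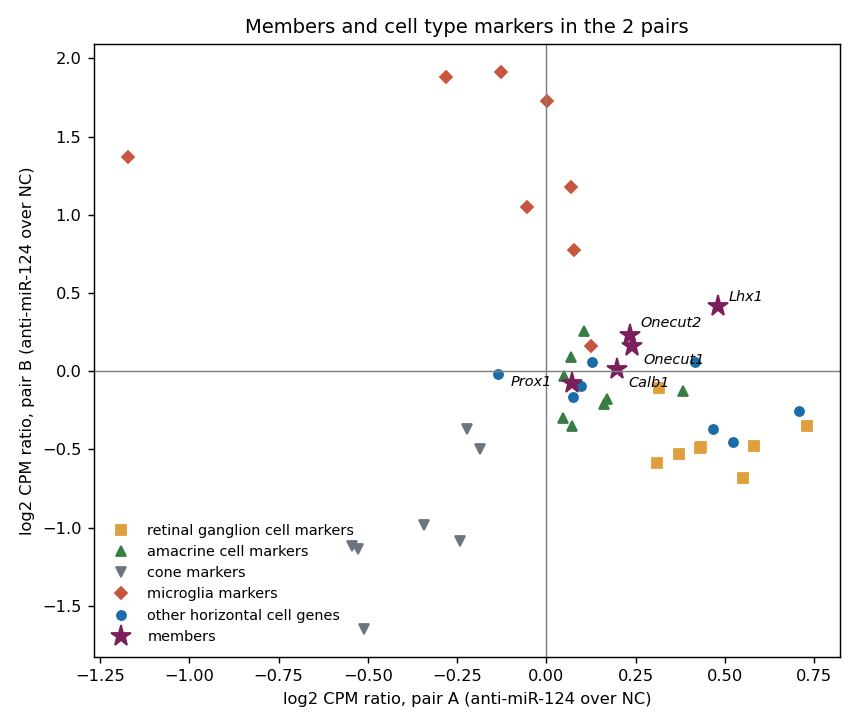
Log2 CPM ratio of the antagomir over the control library in pair A (x axis) and pair B (y axis) for the 5 tested members (stars) and genes of 5 lists. Lhx1, Onecut1, Onecut2 and Calb1 lie where both ratios are positive, all 8 ganglion cell markers are positive in pair A and negative in pair B, and the 7 cone markers are negative in both.

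Of the tested members, Lhx1 varied most over the libraries, with an SD of 0.31 in log2 CPM, against 0.14 for Onecut1 and Onecut2, 0.11 for Calb1 and 0.05 for Prox1. Among 12055 other genes with a mean of at least 100 counts, the genes nearest to Lhx1 in log2 CPM centred on the mean of each gene over 4 libraries were Xylt1, Slc4a4 and Vcam1. Their root mean square distances were 0.02, 0.05 and 0.05 on the log2 scale, and 26 genes lay within 0.1. Xylt1, a xylosyltransferase gene of proteoglycan synthesis, had 5.59 and 7.14 CPM in the control libraries and 7.73 and 9.12 CPM in the antagomir libraries. Slc4a4, a sodium bicarbonate cotransporter gene, had 13.4 and 16.0 against 17.2 and 20.9 CPM. With 4 libraries, such closeness is a description of these libraries only.

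**Figure D5:**
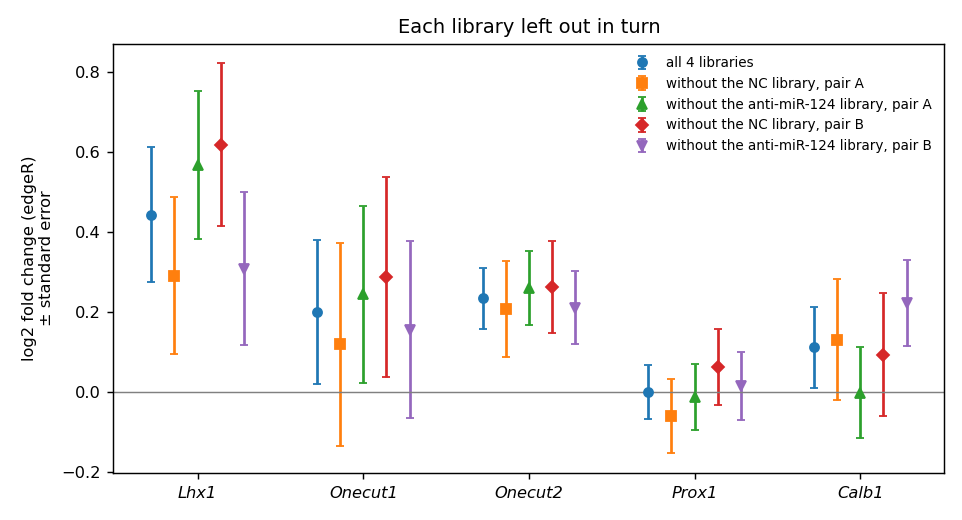
Log2 fold change (edgeR, y axis) with bars of 1 SE for the 5 tested members, from all 4 libraries and with each library left out in turn. Lhx1 ranged from 0.29 to 0.62 and Onecut2 from 0.21 to 0.26, while Calb1 reached -0.003 without the antagomir library of pair A.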

How the data were processed

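Retinal RNA of 4 libraries was analysed. Per the labels, a directional library kit was used. The submitters' processing notes name HISAT2 and mm9, whereas the positions in the table overlapped RefSeq GRCm38 for 99.8% of 36834 matched symbols. The counting tool and its strand setting are not given in the sources used here. The authors deposited raw read counts per gene with gene lengths, and 4 columns of RPKM values, which were not used. Columns were assigned to groups by the eye they name.

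Counts were tested with edgeR 4.0.16 (R 4.3.3) by the quasi-likelihood test with TMM normalization, its default filter on low counts, no covariate, both directions and Benjamini-Hochberg adjustment over all 17766 tested genes at a threshold of 0.05. Fold changes are unshrunk, and standard errors were derived from the F statistic. The script was tested on simulated data. DESeq2 1.42.0, other normalizations and filters, a replicate block and the omission of each library were alternatives. CPM used the TMM factors, and log2 ratios had no pseudocount. Counting intervals are exact (Clopper-Pearson) at 95% and cover counting error only. An exact permutation test of 2 against 2 libraries cannot give a p under 0.333 and was not used. The smallest chi-square per degree of freedom between libraries was 3.44, so none were duplicates. Python 3.11.15, pandas 2.3.3 and scipy 1.17.1 were used for the other steps.

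The members, lists and tests were chosen with earlier results of these data known. Named were the members, the list genes with an unadjusted p under 0.05 or else the 2 highest and 2 lowest of each related list, and the 3 genes nearest in pattern to the most variable member. The values of 1 list gene are not reported here or drawn, but enter the counts and medians of its list. Lhx1os, Gja10, Slc32a1, Nefl, Nefm, Tfap2a, Tfap2b, Lhx5, Gm38678, LOC102632463 and Ptf1aos were named in addition, after their values were seen. The promoters of Calb1 and Onecut2 were not used here, nor was the sequence of miR-124-3p.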

Additional observations from a re-analysis of the deposited data

How the results depend on the processing

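Alternatives added after seeing the data are the crossed pairing and the counts of members at an unadjusted p or apart between the groups. No member passed an adjusted p of 0.05 under any of the alternatives run, and Lhx1, Onecut1 and Onecut2 had positive log2 fold changes under all of them. The count of genes past the threshold was 0 with the settings described, 379 without a filter on low counts and 33 with DESeq2. With a library left out it was between 0 and 256, with 256 without the antagomir library of pair A, 57 without the control library of pair B and 12 without the antagomir library of that pair. The members with an unadjusted p under 0.05 numbered 2 with the settings described and 0 with DESeq2. With a library left out they numbered between 0 and 2, with 0 without the control library of pair A, Lhx1 alone without that of pair B and Onecut2 alone without the antagomir library of pair B. The log2 fold change of Prox1, otherwise -0.001, was 0.0062 with total counts, 0.0058 without a filter, 0.0025 with DESeq2, and between -0.0606 and 0.0613 with a library left out. That of Calb1 lay between -0.0026 and 0.22 with a library left out. The log2 TPM ratio of Onecut2 in pair A was 0.34, and 0.24 when the lens markers were left out of the TPM sum. Ptf1a could be fitted only without the filter.

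Whether the libraries with the same column number came from the same mice is not given in the labels. Over genes, the deviations of these libraries from the group mean correlated at -0.16. With that number as a replicate block, 0 genes passed the adjusted threshold, 376 had an unadjusted p under 0.05 against 694 without the block, and Prox1 had a log2 fold change of 0.0001, as it did with the numbers crossed. With the crossed pairing, 160 genes passed. With 2 libraries per group, differences of the size of those of Onecut1 and Calb1 are within the counting error of at least 1 pair.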
